A study of Mus musculus with 9 samples.

Results

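The genes described here are 10 components of the mTOR pathway and its translation control kinases in MC38 cells, a mouse colon carcinoma line. They are Mtor, Rptor and Rictor (kinase complexes), Tsc1, Tsc2 and Rheb (the switch upstream of the kinase), Ddit4 (a stress-induced inhibitor), and Rps6kb1, Eif4ebp1 and Eef2k (outputs onto translation). They were chosen by gene symbol from a table of 16509 genes, and all 10 were among the 11949 genes abundant enough to test. Messenger RNA was sequenced in 9 libraries, 3 from control cells (Ctrl), 3 from cells given copper chloride with cystine (Cu-Cys) and 3 from cells given Cadict, a copper-cystine nanoparticle that also carries glucose oxidase and the EGFR-binding peptide GE11. The study's text gives PBS as the control treatment, the sample labels DMSO. No dose or time of treatment is given for these libraries. The Cu-Cys and Cadict columns were matched to their samples by abbreviation, and that match is an inference for Cadict, whose columns are headed by initials of its components.

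mTOR is a serine/threonine kinase that works in complex 1 with raptor and in complex 2 with rictor. Complex 1 is switched on at the lysosome by the GTPase Rheb, which the TSC1-TSC2 complex turns off, and stress-induced proteins such as REDD1 (encoded by Ddit4) act through TSC to lower its activity. Active complex 1 promotes translation by phosphorylating S6 kinase and the 4E-BP repressors of eIF4E, and S6 kinase inhibits eEF2 kinase, which otherwise slows elongation by phosphorylating eEF2. Messenger RNA levels do not report the activity of these kinases.

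Levels are given as CPM, counts relative to a common library size after TMM scaling, which sets each library's effective size so that most genes change little, and as deposited TPM where genes are compared with each other, since TPM is scaled by transcript length. Library totals were 17905771 to 18293056 counts, and 3 counts corresponded to 0.130 to 0.262 CPM, below every level given here. TMM factors were 1.26 to 1.27 in Ctrl, 1.21 in Cu-Cys and 0.640 to 0.665 in Cadict libraries, so the scaling decides where zero change lies for Cadict. Library totals in place of TMM moved log2 fold changes of Cadict against Ctrl by a median of -0.95, and DESeq2 size factors moved them by 0.12. The median log2 fold change of all genes tested was -0.13 for Cadict against Ctrl, 0.01 for Cu-Cys against Ctrl and -0.10 for Cadict against Cu-Cys under TMM. A gene "passed" where the quasi-likelihood test of edgeR gave an adjusted p of at most 0.05 (Benjamini-Hochberg, over all genes tested), and was "called" where it also met the study's threshold, a 2-fold change at an adjusted p of at most 0.001. Nothing in the labels says whether replicates were separate cultures. The study states in general that its cell experiments were repeated independently 3 times or more. It calls the n of its legends biological replicates and gives n = 3 for the RNA sequencing. The p-values measure only the spread between these samples. In bulk RNA, fewer cells with a transcript and less of it per cell cannot be told apart.

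The labelled cell line was checked against cell type markers. Of 6 epithelial markers listed in the table, Epcam was at 0 TPM in all Ctrl libraries, Krt8 and Krt18 were at 0.26 TPM or below, and the sum of all 6 was 4.22 to 6.24 TPM in Ctrl and 11.5 to 13.2 TPM in Cadict. The 3 mesenchymal markers summed to 3006 to 3119 TPM in Ctrl and 1244 to 1368 TPM in Cadict, most of it the intermediate filament gene Vim (2865 to 2982 TPM in Ctrl). The 3 immune markers listed summed to 6.89 to 7.45 TPM in Ctrl and 14.8 to 18.2 TPM in Cadict, nearly all of it Cd68, with Ptprc at 0.07 TPM or below throughout. Epcam, Krt8, Krt18 and Vil1 (0.03 TPM or below) were thus at or near zero in Ctrl. The other epithelial markers listed, Cdh1 (2.21 to 2.75 TPM) and Krt19 (1.72 to 3.2 TPM), were low but detected there. The part of the changes in these sums in the results below was not tested.

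With Cadict 4 of the 10 genes changed more than 2-fold and the others less, and all changes with Cu-Cys were small. Rheb rose 8.08-fold with Cadict, while Eef2k fell 6.59-fold, Mtor 3.48-fold and Tsc2 2.37-fold. These 4 genes were called, 1 higher and 3 lower, in a comparison where 20.7% of all genes tested were called higher and 27.1% lower, so the counts of members lie near the background. By the looser test 5 members passed as higher and 4 as lower, against 40.6% and 47.1% of all genes, and Tsc1 did not pass. With Cu-Cys against Ctrl 0 members were called, where 0.167% of all genes were called higher and 1.47% lower. In that comparison 2 members passed as higher and 3 as lower by edgeR, beside 22.6% and 22.4% of all genes, and at an unadjusted p under 0.05 the counts were 3 and 3.

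Of these changes, the rise of Rheb and the falls of Mtor, Tsc2, Rps6kb1 and Eef2k kept their direction and passed under every alternative run, including library totals and deposited TPM. Rptor, Rictor, Eif4ebp1 and Ddit4 were higher with Cadict only relative to the typical gene, and their direction turned under library totals and under deposited TPM and FPKM. Tsc1, which did not pass under TMM, passed as lower in 4 of 19 alternatives, with -1.04 under library totals.

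**Figure D1:**
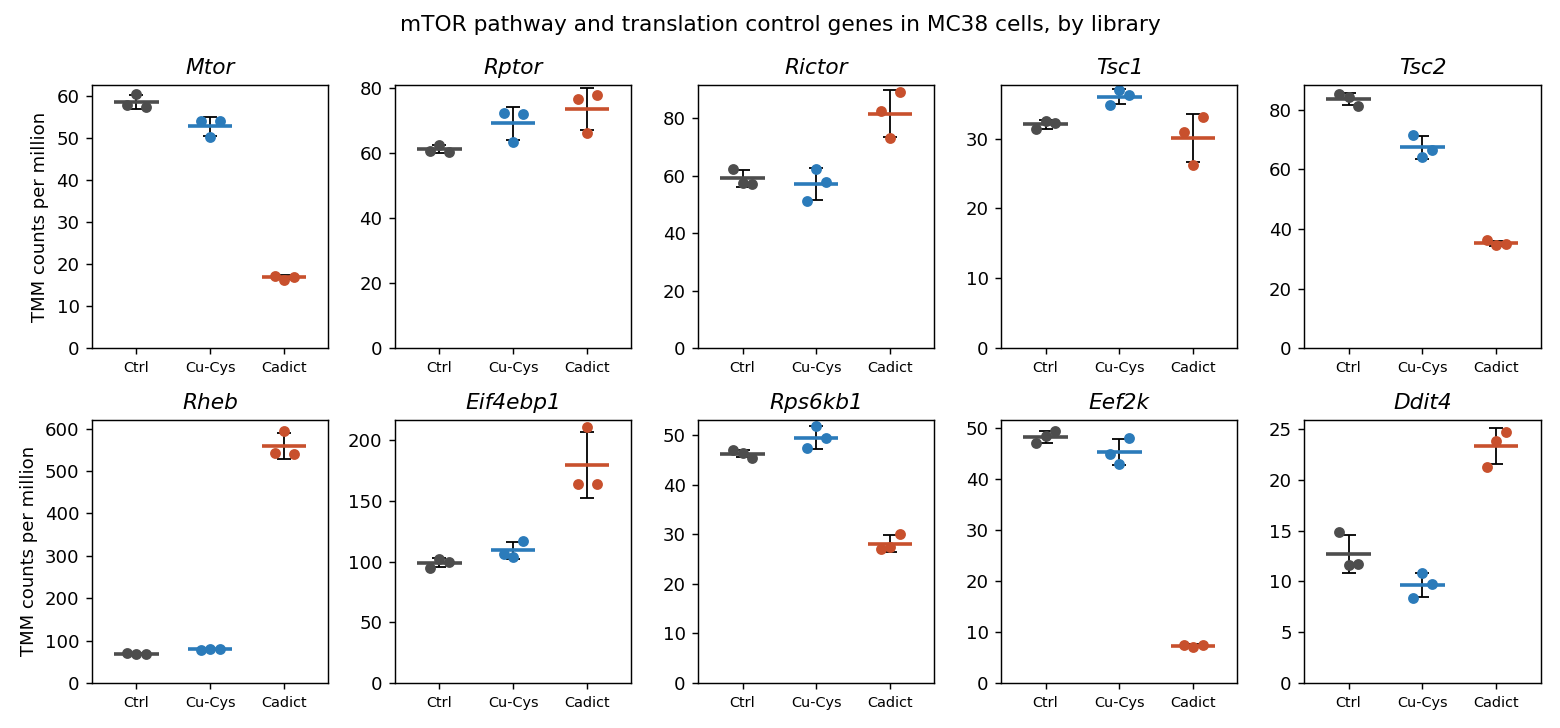
TMM CPM (vertical axis, from 0) of the 10 genes in the 9 libraries, by group. Points are libraries, horizontal bars means and error bars SD (n = 3), and the 3 Cadict libraries lie at 541 to 595 CPM for Rheb and at 6.97 to 7.48 CPM for Eef2k, apart from all other libraries.

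Regulatory sequence is shown for the gene that rose most and the gene that fell most, because the same hexamer stands upstream of both. RefSeq promoter windows on GRCm38.p6, from 250 bases before to 50 after an annotated start, were at hand for 9 members in 11 windows (3 of them for Eef2k). The E-box CACGTG, which reads the same on both strands and is bound by factors such as MYC-MAX, USF and the TFEB/TFE3 family, was in windows of 2 members, Rheb and Eef2k. It was in 7.15% of all 32851 windows. The 250 bases before each start follow 5′ to 3′ with the E-box in capitals, for Rheb on the minus strand (chr5:24842362-24842611) and for the most upstream Eef2k start on the plus strand (chr7:120842581-120842830).
Rheb: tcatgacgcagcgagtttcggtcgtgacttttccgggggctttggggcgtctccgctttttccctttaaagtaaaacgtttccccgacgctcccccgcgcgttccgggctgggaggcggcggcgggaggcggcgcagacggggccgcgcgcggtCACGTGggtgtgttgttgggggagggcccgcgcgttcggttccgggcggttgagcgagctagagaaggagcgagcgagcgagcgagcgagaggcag
Eef2k: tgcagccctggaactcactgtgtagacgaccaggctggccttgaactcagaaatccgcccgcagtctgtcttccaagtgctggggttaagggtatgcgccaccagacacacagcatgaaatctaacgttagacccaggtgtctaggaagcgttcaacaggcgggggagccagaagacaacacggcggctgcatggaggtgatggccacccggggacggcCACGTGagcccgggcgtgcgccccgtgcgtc

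The E-box began 96 bases before the start in Rheb and 31 bases before it in Eef2k, and the transcripts of these genes moved in opposite directions. The ATF4 composite element, searched as TGATGNAA on both strands, was in 3.97% of all windows and in 1 window of Eef2k, at a start farther downstream (chr7:120851094-120851123, shown on the plus strand with the match in capitals).
Eef2k: ctttctgcttgTTTCATCAagctcagcttg

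The cyclic AMP response element TGACGTCA (1.79% of all windows) and the heat shock element (0.603%) were in 0 of the 11 windows, which says only that these letters are not there. A match is a string of letters and no binding was measured.

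The transcript of the mTOR kinase fell with Cadict and those of its defining partners did not fall with it under TMM. Mtor, the catalytic subunit of both complexes, was at 57.9, 60.4 and 57.5 CPM in Ctrl, 54.2, 50.2 and 54.0 CPM in Cu-Cys and 17.3, 16.3 and 16.9 CPM in Cadict. All Cadict libraries were far below all others, and the Cu-Cys libraries were also below Ctrl without overlap. Mtor fell by 1.80 on the log2 scale with Cadict (SE 0.0655, edgeR adjusted p = 5.41e-13), and by 0.15 with Cu-Cys (SE 0.0536, edgeR adjusted p = 0.0318). The Cu-Cys fall was close to the limit of the test and was lost in 10 of 19 alternatives, among them DESeq2 size factors (-0.12, adjusted p = 0.0686). Leaving out a library also lost it for any of the 3 Ctrl libraries (adjusted p = 0.0721, 0.134 and 0.0594) and for the second or the third Cu-Cys library (adjusted p = 0.132 and 0.0596).

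Rptor encodes raptor, the substrate-recruiting subunit of complex 1. Its libraries were at 60.6, 62.6 and 60.5 CPM in Ctrl, 72.3, 63.3 and 72.0 CPM in Cu-Cys and 76.7, 66.2 and 77.8 CPM in Cadict. Both treated groups lay above Ctrl, Cu-Cys and Cadict overlapped, and their difference did not pass (0.09 on the log2 scale, edgeR adjusted p = 0.24), except without the second Cadict library (0.16, adjusted p = 0.0168) and with DESeq2 size factors (0.18, adjusted p = 0.0241), and it turned to -0.79 under library totals. The rise of Rptor with Cadict was 0.27 (SE 0.0700, edgeR adjusted p = 0.00228) and turned to -0.69 under library totals. The rise with Cu-Cys was 0.18 (SE 0.0675, edgeR adjusted p = 0.0449). It did not pass in 11 of 19 alternatives, among them library totals (0.11, adjusted p = 0.247) and limma on log2(TPM + 1) (0.050, adjusted p = 0.755). Nor did it pass when any 1 of the 3 Ctrl libraries was left out (adjusted p = 0.124, 0.0776 and 0.122), nor without the first or the third Cu-Cys library (adjusted p = 0.182 and 0.159) or the first Cadict library (adjusted p = 0.0517).

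Rictor, the defining subunit of complex 2, was at 62.5, 57.7 and 57.2 CPM in Ctrl, 51.4, 62.4 and 57.9 CPM in Cu-Cys and 82.5, 73.1 and 89.3 CPM in Cadict. Ctrl and Cu-Cys overlapped, and Cadict stood above both. Rictor rose by 0.47 with Cadict (SE 0.0802, edgeR adjusted p = 5.34e-05) under TMM and turned to -0.49 under library totals.

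A ratio of 2 genes within a library does not depend on how libraries are scaled, so the partners were also set against Mtor as TPM ratios. Rptor was at 1.22, 1.22 and 1.26 times Mtor in Ctrl, 1.56, 1.47 and 1.62 times in Cu-Cys and 5.53, 4.96 and 5.47 times in Cadict. The ratio stepped up from Ctrl through Cu-Cys to Cadict with no overlap, and was 4.31-fold that of Ctrl with Cadict. Rictor to Mtor was 0.772 ± 0.0414 (SD, n = 3) in Ctrl and 3.68 ± 0.359 in Cadict, a 4.75-fold difference, while Cu-Cys at 0.826 ± 0.130 overlapped Ctrl. The ratio of Rptor to Rictor overlapped between Ctrl (1.51 to 1.68) and Cadict (1.37 to 1.51). With 3 libraries a group, the exact two-sided permutation test cannot go below p = 0.1, which is its value for each of the separated ratios in this and later paragraphs, and 10 ratios chosen after values were seen were computed.

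Among the 12 genes of the mTOR complexes list, 4 passed as higher and 6 as lower with Cadict, beside 40.6% and 47.1% of all genes. Their median log2 fold change was -0.37 beside -0.13 over all genes. Under library totals, where 18.1% of all genes passed as higher and 73.1% as lower, 1 passed as higher and 10 as lower. Akt1s1, which encodes the complex 1 inhibitor PRAS40, went from 37.6 to 40.1 CPM in Ctrl to 56.5 to 57.8 CPM in Cu-Cys and 280.2 to 309.6 CPM in Cadict. It rose by 2.90 with Cadict (SE 0.0551, edgeR adjusted p = 4.96e-16) and by 0.54 with Cu-Cys (edgeR adjusted p = 2.81e-06), and kept both directions under library totals and TPM. Its TPM ratio to Rptor was 2.79 ± 0.0582 in Ctrl and 17.1 ± 2.31 in Cadict. Deptor, another inhibitor bound to mTOR, fell by 1.25 with Cadict (edgeR adjusted p = 5.88e-08), as did Tti1, a chaperone partner of the kinase, by 1.47 (edgeR adjusted p = 2.55e-11). Mlst8, the shared small subunit, did not pass with Cadict under TMM (-0.13, edgeR adjusted p = 0.13). It was at -1.08 under library totals and -1.28 with limma on log2(TPM + 1). With Cu-Cys it rose by 0.28 under TMM (edgeR adjusted p = 0.00389), and 16.4% of its 50-base stretches occur in Bricd5.

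The upstream switch moved in opposite directions at its 2 ends. Rheb, the GTPase that activates complex 1, was at 70.9, 67.8 and 69.0 CPM in Ctrl, 77.5, 81.0 and 79.3 CPM in Cu-Cys and 542.2, 595.2 and 540.8 CPM in Cadict. The 3 groups did not overlap, with Cu-Cys slightly above Ctrl and Cadict far above both. Rheb rose by 3.01 with Cadict (SE 0.0545, edgeR adjusted p = 3.11e-16), by 2.06 under library totals and by 1.69 with limma on log2(TPM + 1). The Cu-Cys rise was 0.20 (SE 0.0533, edgeR adjusted p = 0.00816) and was not past the test under library totals, TPM or FPKM.

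Tsc2 encodes tuberin, the subunit of the TSC complex that inactivates Rheb. It was at 85.3, 84.3 and 81.3 CPM in Ctrl, 71.7, 64.0 and 66.6 CPM in Cu-Cys and 36.2, 34.6 and 34.9 CPM in Cadict. The groups stepped down without overlap from Ctrl to Cu-Cys to Cadict. Tsc2 fell by 1.25 with Cadict (SE 0.0603, edgeR adjusted p = 1.51e-11), by 0.31 with Cu-Cys (SE 0.0541, edgeR adjusted p = 0.000326) and by 0.94 from Cu-Cys to Cadict (edgeR adjusted p = 6.86e-10). Exons of Pkd1 on the opposite strand overlap 7.2% of the exonic bases of Tsc2 in GENCODE M21, and whether the counting used strand is not given in the sources used here. For the other members such overlap was at most 1.79%. Of the 50-base stretches of Tsc2, 8.14% occur in other annotated genes, and at most 2.87% of those of the other members.

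Tsc1 encodes hamartin, the stabilising partner of tuberin. It was at 31.4, 32.6 and 32.2 CPM in Ctrl, 34.8, 37.0 and 36.3 CPM in Cu-Cys and 30.9, 26.2 and 33.1 CPM in Cadict. Ctrl lay inside the range of Cadict and below Cu-Cys. Neither treatment passed against Ctrl under TMM (Cadict -0.09, SE 0.0758, edgeR adjusted p = 0.272, and Cu-Cys 0.17, SE 0.0694, edgeR adjusted p = 0.0602), whereas Cadict was lower than Cu-Cys (-0.26, edgeR adjusted p = 0.00486) and fell against Ctrl by 1.04 under library totals. Cu-Cys against Ctrl passed in 5 of 19 alternatives, which were leaving out the second or the third Cadict library (adjusted p = 0.00909 and 0.0305), DESeq2 size factors (0.0323), the DESeq2 Wald test (0.0475) and a fit of only these groups (0.0103).

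Within libraries, TPM of Rheb was 3.71, 3.55 and 3.81 times that of Tsc2 in Ctrl, 4.85, 5.65 and 5.25 times in Cu-Cys and 66.1, 75.7 and 67.5 times in Cadict. Both treated groups lay above every Ctrl library, Cu-Cys 1.42-fold and Cadict 18.9-fold. Tsc1 to Tsc2 was 0.276 ± 0.0102 (SD, n = 3) in Ctrl, 0.387 ± 0.0341 in Cu-Cys and 0.611 ± 0.0650 in Cadict, again without overlap. The 5-gene list of TSC complex and Rheb had 1 gene past the test as higher with Cadict, Rheb, and 3 as lower. Of all genes, 40.6% passed as higher and 47.1% as lower. The list median was -0.46. Rhebl1, the close relative of Rheb, was chosen for mention after its values were seen. It was at 5.28 to 6.10 CPM in Ctrl and 0.765 to 1.51 CPM in Cadict, a fall of 2.34 (edgeR adjusted p = 2.53e-08) where Rheb rose.

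Ddit4, which encodes the TSC-activating stress protein REDD1, was the only member whose changes with the 2 treatments passed in opposite directions under TMM. It was at 14.9, 11.6 and 11.7 CPM in Ctrl, 8.40, 10.8 and 9.71 CPM in Cu-Cys and 21.3, 23.9 and 24.8 CPM in Cadict. Cu-Cys lay below Ctrl and Cadict above it, and the first Ctrl library stood above the other Ctrl libraries. Ddit4 fell by 0.40 with Cu-Cys (SE 0.115, edgeR adjusted p = 0.0115), rose by 0.87 with Cadict (SE 0.112, edgeR adjusted p = 2.13e-06) and was 2.42-fold higher with Cadict than with Cu-Cys (edgeR adjusted p = 4.48e-08). The Cadict rise turned to -0.079 under library totals and -0.41 with limma on log2(TPM + 1), and the difference from Cu-Cys shrank to 0.39 and 0.10, neither called. Without the first Ctrl library the Cu-Cys difference was -0.27 and did not pass (edgeR adjusted p = 0.08), and without the first Cu-Cys library it was -0.31 (edgeR adjusted p = 0.0576).

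Of the 6 tested genes of the stress-induced inhibitors list, 3 passed as higher and 3 as lower with Cadict, beside 40.6% and 47.1% of all genes. With Cu-Cys 1 passed as higher and 5 as lower, beside 22.6% and 22.4% of all genes. Under library totals the Cadict counts were 1 higher and 4 lower, beside 18.1% and 73.1% of all genes. Sesn2, a leucine sensor that restrains complex 1 through GATOR2, was at 10.1 to 11.7 CPM in Ctrl, 6.86 to 8.98 CPM in Cu-Cys and 100.2 to 120.9 CPM in Cadict. It fell by 0.49 with Cu-Cys (edgeR adjusted p = 0.00385) and rose by 3.39 with Cadict (SE 0.0951, edgeR adjusted p = 2.82e-14), and both directions held under library totals and TPM. Bnip3, a mitochondrial protein reported to bind Rheb, went the other way, with a rise of 0.46 with Cu-Cys (edgeR adjusted p = 6.84e-05) and a fall of 2.97 with Cadict (edgeR adjusted p = 5.23e-14). Of its 50-base stretches, 47.2% also occur in other annotated genes, so its level is uncertain.

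Ddit4 and Sesn2 are also targets of ATF4, the transcription factor of the integrated stress response. The list described next holds Sesn2 but not Ddit4. All 14 genes of the list ATF4 and its targets passed as higher with Cadict under TMM, where 40.6% of all genes did. Their median log2 fold change was 2.14 beside -0.13 over all genes. Under library totals 10 passed as higher and 3 as lower, beside 18.1% and 73.1% of all genes. Atf3, a stress-induced transcription factor, rose by 6.80 (12.3 to 16.2 CPM in Ctrl, 1554 to 1734 CPM in Cadict, edgeR adjusted p = 3.21e-17). Ppp1r15a, which encodes GADD34, rose by 5.74 (edgeR adjusted p = 9.45e-18), and Ddit3, which encodes CHOP, by 2.59 (edgeR adjusted p = 8e-13). Atf4 itself rose by 0.68 and Trib3 by 0.37 (edgeR adjusted p = 1.23e-08 and 1.42e-05) under TMM, with 0.80 and 0.49 under DESeq2 size factors but -0.28 and -0.58 under library totals. With Cu-Cys, 7 of the 14 passed as higher and 4 as lower, beside 22.6% and 22.4% of all genes.

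The outputs onto translation held the largest fall of the 10 genes. Eef2k, the kinase that phosphorylates and inhibits elongation factor eEF2, was at 46.9, 48.4 and 49.3 CPM in Ctrl, 44.9, 42.9 and 47.9 CPM in Cu-Cys and 7.48, 6.97 and 7.47 CPM in Cadict. Ctrl and Cu-Cys overlapped, and the Cadict libraries, with 80 to 89 counts each, were far below. Eef2k fell by 2.72 with Cadict (SE 0.0801, edgeR adjusted p = 4.81e-14), and its Cu-Cys difference did not pass (-0.09, edgeR adjusted p = 0.205), except under library totals (-0.16, adjusted p = 0.0376). Its substrate transcript Eef2 went the other way, at 2415 to 2492 CPM in Ctrl and 6832 to 7153 CPM in Cadict, a rise of 1.53 (edgeR adjusted p = 1.96e-13) that kept its direction under library totals (0.57) and TPM (0.22). TPM of Eef2 was 106.2 to 112.2 times that of Eef2k in Ctrl, 109.4 to 122.4 times in Cu-Cys and 1940 to 2221 times in Cadict.

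Rps6kb1 encodes S6 kinase 1, which phosphorylates ribosomal protein S6. It was at 47.1, 46.3 and 45.5 CPM in Ctrl, 47.4, 51.9 and 49.4 CPM in Cu-Cys and 26.9, 27.4 and 30.1 CPM in Cadict. Cadict lay below both other groups, and Cu-Cys lay just above Ctrl. Rps6kb1 fell by 0.72 with Cadict (SE 0.0645, edgeR adjusted p = 3.17e-08) and did not pass with Cu-Cys (0.10, edgeR adjusted p = 0.179). Its relative Rps6kb2 fell by 1.43 with Cadict (edgeR adjusted p = 4.99e-07) and by 0.43 with Cu-Cys (edgeR adjusted p = 0.00955), with 19.5% of its 50-base stretches shared with Ptprcap. The substrate transcript Rps6 rose by 2.23 with Cadict (816.8 to 860.8 CPM in Ctrl, 3446 to 4590 CPM in Cadict, edgeR adjusted p = 5e-13), also under library totals and TPM, and 43.8% of its stretches occur in other genes, mostly pseudogenes.

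Eif4ebp1 encodes 4E-BP1, the repressor that holds the cap-binding protein eIF4E. It was at 95.0, 102.2 and 99.7 CPM in Ctrl, 106.4, 104.1 and 117.2 CPM in Cu-Cys and 163.8, 211.2 and 164.1 CPM in Cadict. The groups did not overlap, and the second Cadict library stood above its replicates. Eif4ebp1 rose by 0.86 with Cadict (SE 0.0842, edgeR adjusted p = 9.2e-08) under TMM, turned to -0.10 under library totals, and did not pass with Cu-Cys (0.14, edgeR adjusted p = 0.18), except in 2 of 19 alternatives, without the second Cadict library (adjusted p = 0.00922) and in a fit of only these groups (adjusted p = 0.013). Eif4e, its target, rose by 2.07 with Cadict and 0.39 with Cu-Cys (edgeR adjusted p = 4.69e-15 and 1.54e-05), and both rises kept their direction under library totals and TPM. TPM of Eif4ebp1 was 1.54, 1.57 and 1.57 times that of Eif4e in Ctrl, 1.28, 1.23 and 1.38 times in Cu-Cys and 0.587, 0.753 and 0.624 times in Cadict. The repressor-to-target ratio stepped down without overlap from Ctrl to Cu-Cys to Cadict, to 0.418 of the Ctrl value. Eif4ebp2, the sister repressor, fell by 0.46 with Cadict (edgeR adjusted p = 0.00104), and the second Cadict library (18.4 CPM) lay below its replicates (27.8 and 28.0 CPM).

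Of the 20 genes of the list of complex 1 effectors on translation, 12 passed as higher and 7 as lower with Cadict, with a median of 0.61, beside 40.6% and 47.1% of all genes. With Cu-Cys 9 passed as higher and 2 as lower, beside 22.6% and 22.4% of all genes. Under library totals the Cadict counts turned to 5 higher and 11 lower, where 18.1% of all genes passed as higher and 73.1% as lower. Eif4a1, the cap-complex helicase, rose by 0.49 with Cu-Cys (edgeR adjusted p = 4.55e-06, with 28.4% of its 50-base stretches in other genes), while Pdcd4, an inhibitor of that helicase degraded after S6 kinase phosphorylation, fell by 0.58 (edgeR adjusted p = 4.82e-05). Larp1, a repressor of ribosomal protein mRNA translation, rose by 0.79 with Cadict (edgeR adjusted p = 4.24e-10) and turned to -0.17 under library totals.

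**Figure D2:**
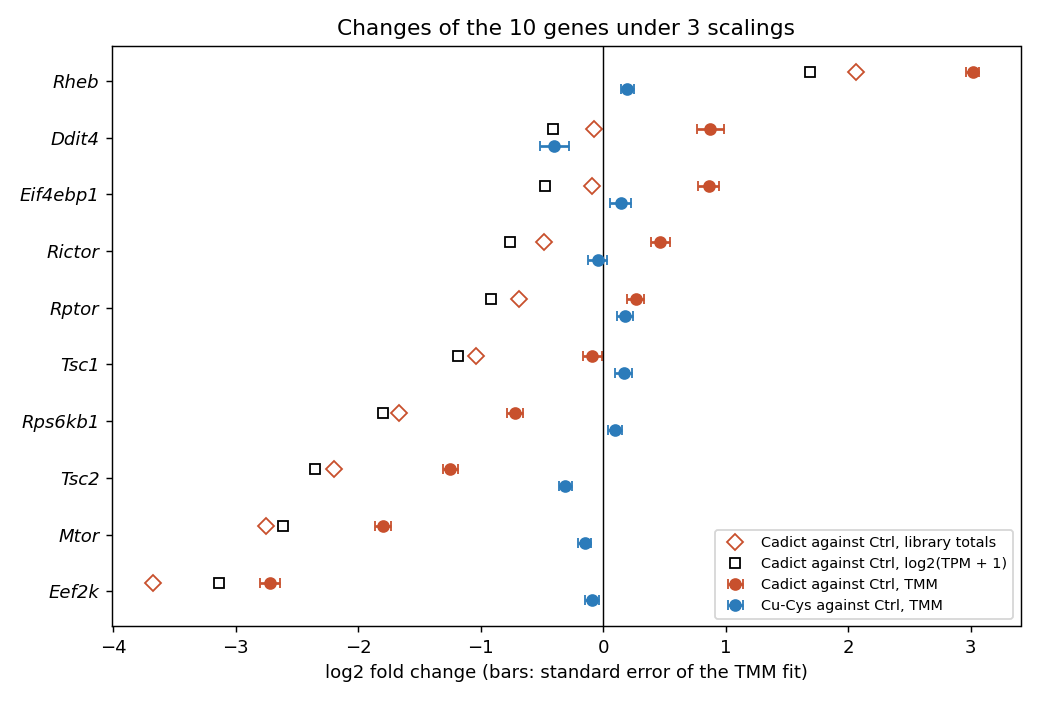
Log2 fold changes (horizontal axis) of the 10 genes against Ctrl. Filled points with standard errors are the TMM fit for Cadict and Cu-Cys, open diamonds Cadict under library totals and open squares Cadict by limma on log2(TPM + 1), and 6 genes (Rheb above zero, Eef2k, Mtor, Tsc2, Rps6kb1 and Tsc1 below, the last not past the test under TMM) stay on their side of zero in all 3, whereas Ddit4, Eif4ebp1, Rictor and Rptor cross it.

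Cadict was also compared directly with Cu-Cys. There 2 members were called higher, Rheb (2.82) and Ddit4 (1.27), and 2 lower, Eef2k (-2.63) and Mtor (-1.65), where 18.6% and 23.6% of all genes were called. By edgeR's test at an adjusted p of 0.05, 4 members passed as higher and 5 as lower, where 40.3% and 45.6% of all genes did, and Rptor did not pass. Tsc2, called against Ctrl, was 1.91-fold lower than with Cu-Cys, just under the 2-fold threshold, and was called with no filter on low counts (a fall of 1.03). Comparisons with Ctrl share the same control libraries, so the values of both treatments are given side by side above and no agreement between them was computed.

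The order of the 10 genes by TPM, which is scaled by length, shifted with Cadict. Mean TPM was lower with Cadict than in Ctrl for every member except Rheb, so a higher place in this order is not a rise in TPM. In Ctrl, Eif4ebp1 was highest (325 ± 7.59 TPM, SD, n = 3), then Rheb (124 ± 4.70), Tsc2 (33.7 ± 1.41), Rps6kb1 (25.3 ± 1.31), Rptor (22.3 ± 0.774), Ddit4 (20.1 ± 3.30), Mtor (18.1 ± 0.936), Eef2k (17.1 ± 0.132), Rictor (14.0 ± 0.972) and Tsc1 (9.28 ± 0.0954). The libraries of neighbours from Rptor to Eef2k overlapped in this order and the others were apart. In Cadict, Rheb came first (403 ± 18.6 TPM), before Eif4ebp1 (234 ± 13.9), Ddit4 (14.9 ± 1.90) and Rptor (11.4 ± 1.70). The bottom of the order was Tsc1 (3.57 ± 0.738 TPM), Mtor (2.14 ± 0.208) and Eef2k (1.06 ± 0.148), each apart from the next. Between them, Rictor (6.29 to 9.29 TPM) overlapped Rps6kb1 (5.95 to 7.46 TPM). Rps6kb1 overlapped Tsc2 (5.09 to 6.26 TPM), while Rictor and Tsc2 were apart. In Cu-Cys the order was that of Ctrl except for Ddit4, which stood below Eef2k at 13.7 ± 1.69 TPM, and neighbours overlapped from Tsc2 to Rptor and again from Mtor to Rictor.

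**Figure D3:**
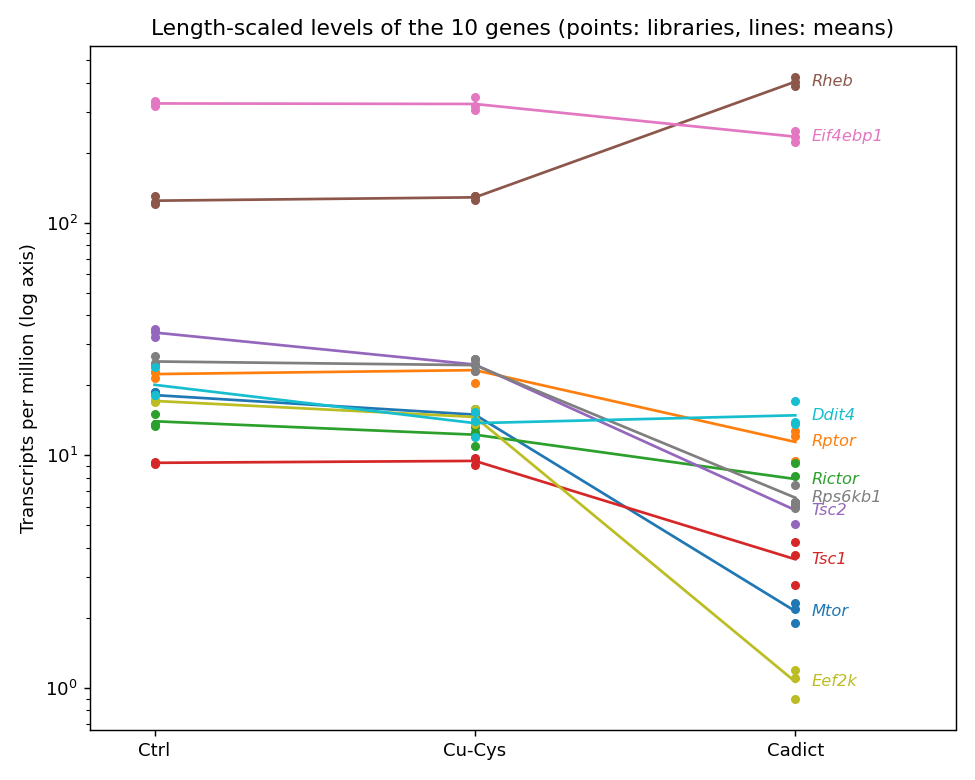
TPM (log axis) of the 10 genes in each library (points) with group means (lines). Rheb passes Eif4ebp1 at the top with Cadict, at 385 to 422 against 221 to 249 TPM, and Mtor and Eef2k drop from the middle to the bottom, at 1.91 to 2.32 and 0.900 to 1.19 TPM.

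Transcript length moved with the changes across all genes. In 5 bins of 10877 genes by effective length, estimated from deposited counts and FPKM in Ctrl, the median log2 fold change of Cadict against Ctrl was 0.53 in the shortest bin and -0.43 in the longest. Mtor, Rptor, Rictor, Tsc1, Tsc2 and Eef2k lie in the longest bin (5293 to 9004 bases), and Rheb (1191 bases) and Eif4ebp1 (651 bases) in the shortest. Against the median of its bin, Rheb was still 2.49 above, and Eef2k -2.29, Mtor -1.37 and Tsc2 -0.81. Eif4ebp1 was 0.33 above its bin and Rps6kb1 -0.29, each less than 0.5 of its change against Ctrl. Tsc1 was 0.34 above its bin, Rptor 0.70, Rictor 0.90 and Ddit4 0.95. The part of length in these values was not tested.

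The other inputs to the kinase were described by 3 lists. Of 28 tested genes of Rag GTPases, Ragulator and amino acid sensing, 13 passed as higher and 14 as lower with Cadict, shares near the background. The median was -0.01. Under library totals the counts were 7 and 19, beside 18.1% and 73.1% of all genes. Mios, a GATOR2 subunit, fell by 3.42 (20.8 to 23.1 CPM in Ctrl, 1.87 to 2.44 CPM in Cadict, edgeR adjusted p = 5.1e-13). Lamtor3, a Ragulator subunit, rose by 2.83 with Cadict (edgeR adjusted p = 1.19e-15), also under library totals and TPM. With Cu-Cys the leading changes were in the folliculin and Rag C genes, with Flcn up by 0.92 (33.4 to 35.7 CPM in Ctrl, 63.4 to 67.5 CPM in Cu-Cys, edgeR adjusted p = 1.01e-07) and Rragc by 0.55 (edgeR adjusted p = 3.82e-07).

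In the PI3K-AKT input list of 16 genes, 3 passed as higher and 10 as lower with Cadict (median -0.42), beside 40.6% and 47.1% of all genes. Under library totals the counts were 0 and 16, beside 18.1% and 73.1% of all genes. Pik3r2, a regulatory subunit of PI3K, fell by 3.50 with Cadict (77.2 to 81.1 CPM in Ctrl, 6.88 to 7.14 CPM in Cadict, edgeR adjusted p = 9.66e-16), the insulin receptor gene Insr by 1.39 (edgeR adjusted p = 8.26e-11) and the AKT phosphatase gene Phlpp2 by 1.00 (edgeR adjusted p = 7.24e-09). In the AMPK and LKB1 list of 12, 4 passed as higher and 8 as lower with Cadict (median -0.64), beside the same 40.6% and 47.1%. Under library totals its counts were 2 and 10, beside the same 18.1% and 73.1%. Camkk2, an AMPK-activating kinase, fell by 1.49 with Cadict (edgeR adjusted p = 1.41e-11) and Cab39l, of the family that scaffolds LKB1, by 1.34 (edgeR adjusted p = 8.71e-11), and Prkag1, an AMPK subunit, rose by 1.22 (edgeR adjusted p = 8.85e-12, with 28.8% of its stretches shared) but turned to -0.09 with limma on log2(TPM + 1).

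Among 7 tested other substrates of complex 1, 1 passed as higher with Cadict and 6 as lower (median -0.996), beside 40.6% and 47.1% of all genes. Under library totals the same counts passed, beside 18.1% and 73.1% of all genes. Tfe3, a lysosomal gene regulator that binds E-boxes, rose by 1.74 (43.4 to 44.9 CPM in Ctrl, 144.8 to 150.8 CPM in Cadict, edgeR adjusted p = 1.43e-13). The autophagy initiators fell, Ulk2 by 2.54, Atg13 by 1.52 and Ulk1 by 0.38 (edgeR adjusted p = 6.92e-12, 8.17e-11 and 0.00138). Of 9 other kinases acting on translation factors, 2 passed as higher and 6 as lower with Cadict (median -1.12), beside 40.6% and 47.1% of all genes. The eIF2α kinase genes Eif2ak3 and Eif2ak2, for PERK and PKR, fell by 1.65 and 1.14 (edgeR adjusted p = 1.24e-11 and 1.02e-10). The other eIF2α kinase genes, Eif2ak4 and Eif2ak1, added after their values were seen, fell by 1.5 and 0.76. Rps6ka1, for the kinase RSK1, fell by 2.59 (edgeR adjusted p = 1.35e-12). Rps6ka2, for RSK3, rose by 1.63 (edgeR adjusted p = 7.83e-12, with 19.4% of its stretches shared). Mknk2, an eIF4E kinase, showed the largest Cu-Cys change of this list that passed at 10 CPM or more, a fall of 0.61 (edgeR adjusted p = 9.89e-07).

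**Figure D4:**
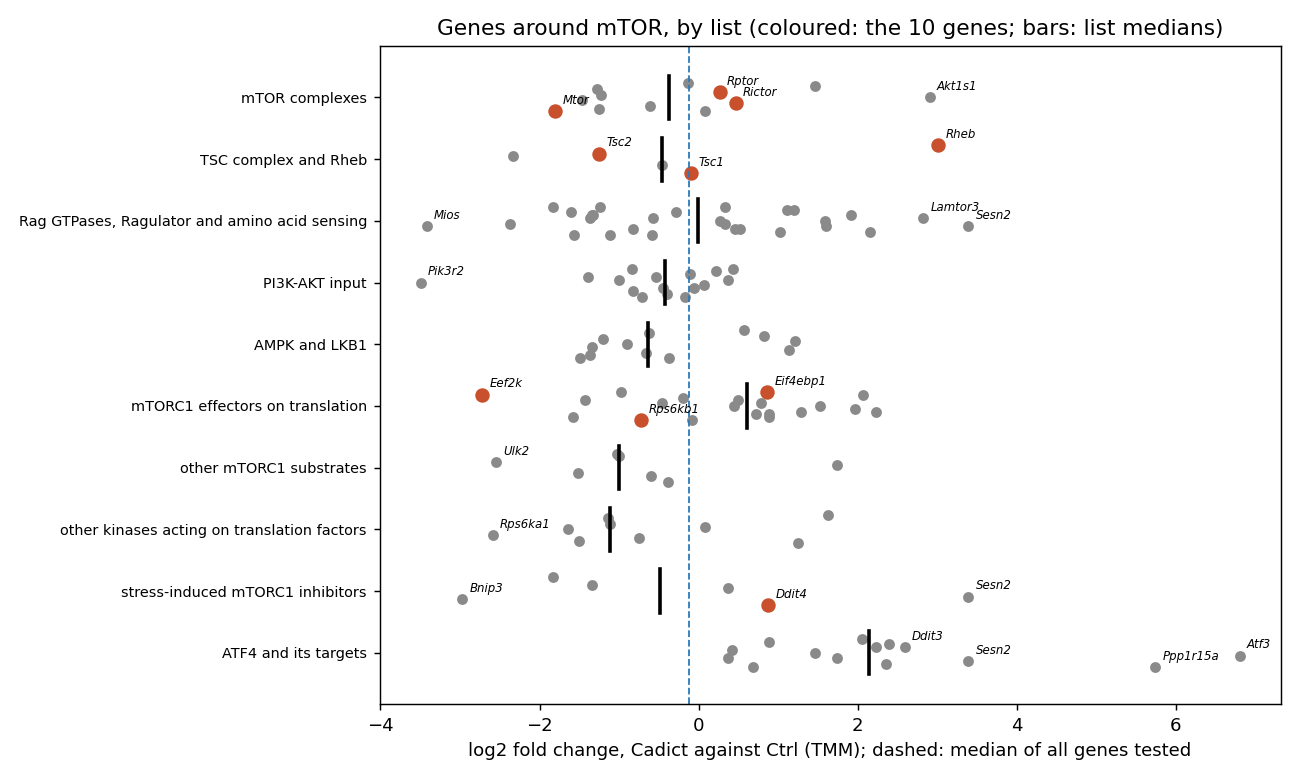
Log2 fold change of Cadict against Ctrl under TMM (horizontal axis) for the tested genes of 10 lists around mTOR. The 10 genes described here are coloured, black bars are list medians and the dashed line is the median of all genes tested (-0.13), and the list of ATF4 and its targets lies wholly above zero under this scaling (under library totals 3 of its genes passed as lower) while the others straddle it.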

How the data were processed

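RNA-seq of MC38 cells was analysed in 9 libraries, 3 per group. The authors deposited, for each gene and library, an expected count (estimated reads, not normalized), an FPKM and a TPM value. Their processing notes name HISAT2 2.1.0, Bowtie2 2.3.4.3 and RSEM 1.3.1 and the builds GRCm39 and GRCh38.p13, with no roles. The methods name TRIzol and an Illumina instrument, the labels a column kit, oligo(dT) enrichment and DNA nanoballs. Columns headed CC were read as Cu-Cys and CCGE as Cadict. The table also holds 9 further per-sample columns of normalized counts and 12 columns of averages, which were not used.

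Expected counts were rounded and filtered with filterByExpr in edgeR 4.0.16 (R 4.3.3), scaled by TMM, and tested in 1 quasi-likelihood fit of the 3 groups with Benjamini-Hochberg adjustment over 11949 genes. The study's methods name DESeq with the call threshold used here. Alternatives used DESeq2 1.42.0, limma 3.58.1 on log2 of TPM or FPKM with pseudocounts of 1 or 0.1, library totals, other filters, pairwise fits, a replicate block and leaving out each library. The edgeR fit was tested on simulated data. No library pair held identical counts.

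The named genes are the 10 members, fixed partners, and of each list the 3 largest called changes with Cadict and the 2 largest passed changes with Cu-Cys, at a mean of at least 10 CPM. One gene that this rule selects is not reported here by itself and stays in the counts of its list. The members, lists and motifs were chosen with earlier results of these data known. Promoter windows are from RefSeq on GRCm38.p6, shared 50-base stretches and exon overlaps from GENCODE M21, and both differ in build from the authors' GRCm39.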

Additional observations from a re-analysis of the deposited data

Results flagged for a closer look

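In 6 of the named genes, the changes with Cu-Cys and with Cadict against Ctrl passed edgeR's test in opposite directions under TMM, and the difference between the treatments, tested directly as Cadict against Cu-Cys, passed too. Among the 10 members this was Ddit4 alone, with a log2 difference of 1.27. Of the other genes, Atf3 differed by 7.27, Sesn2 by 3.88, Prkab2, an AMPK subunit gene, by 0.87 and Trib3 by 0.71, each lower with Cu-Cys and higher with Cadict. Bnip3 differed by -3.44, higher with Cu-Cys and lower with Cadict. Under library totals Ddit4, Prkab2 and Trib3 were below Ctrl with both treatments, at -0.079, -0.38 and -0.58 with Cadict, so that their opposite directions depend on the scaling, whereas those of Atf3, Sesn2 and Bnip3 do not. Groups of 3 libraries are too small for a check of single outlying samples.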

How the results depend on the processing

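The scaling of the Cadict libraries decided the direction of 4 members and whether Tsc1 passed against Ctrl. Tsc1 did not pass under TMM and passed as lower in 4 of 19 alternatives. It was at -1.04 under library totals, -1.18 with limma on log2(TPM + 1), -0.83 on log2(FPKM + 1) and 0.03 with DESeq2 size factors. Against Ctrl, under library totals, limma on log2(TPM + 1), log2(FPKM + 1) and log2(TPM + 0.1) in that order, Rptor was at -0.69, -0.92, -0.58 and -0.97, Rictor at -0.49, -0.76, -0.43 and -0.83, Eif4ebp1 at -0.10, -0.47, -0.13 and -0.48, and Ddit4 at -0.079, -0.41, -0.079 and -0.43. Against Cu-Cys, Rptor was at -0.79, -0.97, -0.70 and -1.03, Rictor at -0.37, -0.59, -0.33 and -0.64, and Eif4ebp1 at -0.17, -0.47, -0.19 and -0.47. With Cadict against Ctrl 5 members were called lower under library totals and both TPM settings. Of all 11949 genes, 6148, 6475 and 7202 were called lower in these settings. Under TMM with no limit on the fold 5 passed as higher and 4 as lower. With Cadict against Cu-Cys 1 member was called higher under library totals, TPM and FPKM, and 5, 5, 4 and 6 were called lower in the order above. Of all 11949 genes, 688, 359, 472 and 466 were called higher in that order, and 5705, 5785, 4499 and 6633 lower. Under TMM with no limit on the fold 4 were higher and 5 lower against Cu-Cys, and with Cu-Cys against Ctrl 2 were higher and 3 lower. All genes called with Cu-Cys numbered 196, but 119 at a minimum of 10 counts in every library, 117 under log2(TPM + 1) and 71 under log2(FPKM + 1). Called genes with Cadict against Ctrl were 43.3% higher under TMM and 11.9% under library totals. The causes were not tested. A replicate block gave 5685, 183 and 5019 calls over all genes, against 5707, 196 and 5041 without it, and with it Mtor no longer passed with Cu-Cys (adjusted p = 0.0559), the only change of a call among the members. Residuals of same-numbered libraries correlated at -0.155 to 0.151 over 9706 genes. Such residuals, centred in groups of 3 libraries, cannot decide whether same-numbered libraries were handled as a set. Leaving out each library in turn changed no count of called members.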
